A study of Laodelphax striatellus with 6 samples.

Results

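The genes described here belong by description to the ubiquitin and proteasome system. The libraries were made from the small brown planthopper, Laodelphax striatellus, a sap-feeding insect pest of rice. The genes were chosen by the protein description attached to each assembled gene. A gene was taken if its description held proteasom, ubiquitin, cullin, F-box, COP9, SUMO, NEDD8 or transitional endoplasmic reticulum ATPase, and left out if it named the autophagy enzyme ATG7, a ribosomal protein or autophagy. This gave 231 of 59004 assembled genes, of which 25802 carried a description, and 3 further matches were left out by the second part of the rule. Each is a row of the deposited table, so 1 planthopper gene may be split over several rows. The best protein hit was a planthopper for 105 of the 231 and another species for 126. The organism that the RNA came from was not tested.

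Ubiquitin is a small protein that cells join to other proteins as a tag. An activating enzyme (E1) charges ubiquitin, a conjugating enzyme (E2) carries it, and a ligase (E3) chooses the protein that receives it, while deubiquitinases remove it. Chains of ubiquitin send a protein to the 26S proteasome, a barrel-shaped 20S core that cuts proteins, capped by a 19S particle that recognises, unfolds and feeds them in. SUMO and NEDD8 are related tags, and NEDD8 on a cullin switches on the largest group of ligases.

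Poly(A) RNA of entire insects was sequenced with a strand-keeping library method. Of 6 libraries, 3 came from insects given β-asarone, a phenylpropanoid of plants, and 3 from control insects. All are labelled wild type (WT) and whole body, and the study's question was how the insects detoxify the compound. Dose, exposure time, sex, stage and pooling are not in the labels, which also leave unsaid whether replicates are separate insects. The p-values therefore measure how far these libraries spread, and that spread may be technical. Values are in TPM, a length-corrected share of all transcripts in a library. Sequencing depth cannot be read from TPM, and no counting interval is given. In whole bodies, fewer cells of a type and less RNA per cell cannot be told apart.

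Replicate 2 of each group stood apart in the whole table. Control replicate 2 had a median of 2.23 TPM over tested rows, against 2.85 to 3.37 TPM elsewhere, and a median-of-ratios size factor of 0.783, against 1.00 to 1.13. β-asarone replicate 2 held 560 rows that were found almost only there. The markers of tissues also varied between libraries. The summed level of 42 cuticle rows was 18469, 6853 and 15228 TPM in β-asarone libraries and 17913, 17853 and 11568 TPM in control libraries. The summed level of 25 sperm and axoneme rows was 52.2, 33.5 and 43.7 TPM in β-asarone libraries and 60.0, 31.0 and 24.8 TPM in control libraries. Muscle rows (29) summed to 2947, 1930 and 2205 TPM in β-asarone libraries and 2878, 2014 and 2557 TPM in control libraries. The 3 yolk and eggshell rows summed to 27.2, 12.8 and 19.8 TPM in β-asarone libraries and 32.6, 8.97 and 15.6 TPM in control libraries. In both lists replicate 1 was highest and replicate 2 lowest in each group. None of these rows was at 0 in every library, and their part in the values below was not tested.

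No member passed the test between β-asarone and control insects. The members were close in level in the 2 groups: their summed level was 3070, 3019 and 2728 TPM in β-asarone libraries and 2936, 2632 and 2796 TPM in control libraries, and the groups overlapped. Of the 231 members, 141 reached a mean of 1 TPM over the 6 libraries and were tested with limma on log2(TPM + 1), and 90 were too low. With p adjusted by the Benjamini-Hochberg method over all 24816 tested rows, 0 of the 141 were called, against 0.00403% of all tested rows, which is 1 row. The smallest adjusted p of a member was 0.98 (limma). At an unadjusted p under 0.05, 1 member was higher and 5 were lower in β-asarone libraries, against 3.47% of all tested rows in either direction. limma without its trend and robust options also called 0 members.

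The intervals of most members were narrow. The 95% interval of the log2 change lay wholly between -1 and 1 for 120 of the 141 tested members (85.1%). That is within a doubling or halving of TPM + 1, not of TPM. The interval did so for 53 of the 56 members that averaged 5 TPM or more (94.6%). It also did so for 67 of the 85 at 1 to 5 TPM (78.8%), where the added 1 understates the change of TPM. The shares were 64.4% of all tested rows and 74.9% of those at 5 TPM or more. Intervals cover the spread between libraries only.

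Levels of the members spanned a wide range. Of the 231 rows, 38 averaged at least 10 TPM, 13 at least 50 TPM and 3 at least 100 TPM, and all 3 of those were polyubiquitin rows. Ubiquitin genes alone made up 43.4% to 50.5% of the members' TPM in a library. A value above 0 was found in all 6 libraries for 196 members. Every class of the system had summed levels that overlapped between the groups, with ratios of group means from 0.872 for the single E1 row to 1.12 for the members of no class.

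**Figure D1:**
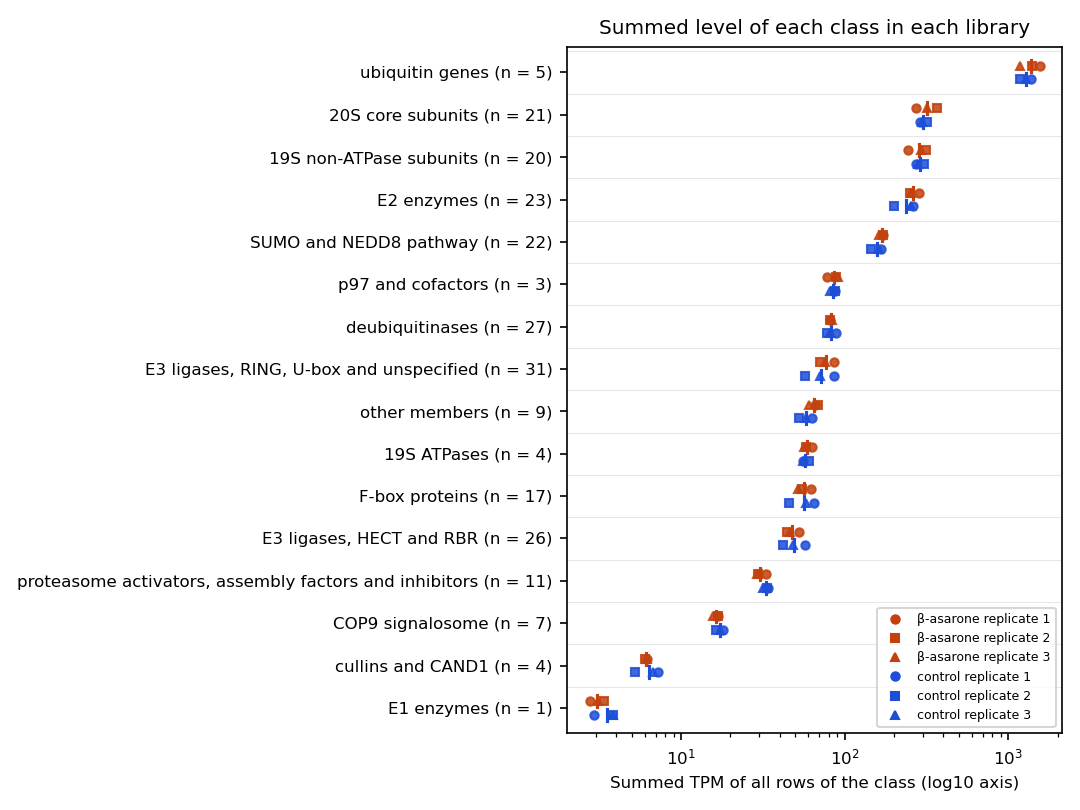
Summed TPM of all rows of each class (log10 axis) in each of the 3 β-asarone and 3 control libraries, with short vertical lines at the group means and n the number of rows in the class. The 2 groups overlap in every class, and the 5 ubiquitin rows sum to the highest levels, at 1183 to 1552 TPM in β-asarone libraries and 1177 to 1385 TPM in control libraries.

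Ubiquitin itself is made as head-to-tail chains (polyubiquitin) or fused to other proteins, and cut into single units. Polyubiquitin TRINITY_DN11470_c0_g1, the most abundant member, had 710.25, 673 and 511 TPM in β-asarone libraries and 615, 545 and 561 TPM in control libraries. Its level averaged 631 ± 106 TPM in β-asarone libraries and 574 ± 36.8 TPM in control libraries (SD, n = 3 each), with 1 β-asarone library below all controls. A second polyubiquitin row, TRINITY_DN3081_c5_g2, had 582, 526 and 469.9 TPM in β-asarone libraries and 554, 440.1 and 518 TPM in control libraries. Its groups overlapped too, with β-asarone replicate 1 highest and control replicate 2 lowest. Near-identical ubiquitin repeats can share reads, so the split between such rows is uncertain.

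Among the other ubiquitin rows, polyubiquitin TRINITY_DN6943_c0_g1 had 20.6, 18.3 and 15.1 TPM in β-asarone libraries and 16.4, 11.6 and 13.6 TPM in control libraries. Its log2 change of 0.35 (SE 0.18) had an unadjusted limma p of 0.102 (adjusted p = 0.98), and only control replicate 1 reached into the β-asarone range. The row described as Ubiquitin, TRINITY_DN51185_c0_g1, had 39.1, 48.7 and 44.5 TPM in β-asarone libraries and 44.1, 53.0 and 55.3 TPM in control libraries. It was the 1 ubiquitin row of 5 with a lower mean in β-asarone libraries, and its groups overlapped.

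The core and cap of the proteasome are described first for rows whose best protein hit is a planthopper (mostly Nilaparvata or Laodelphax). These 11 rows stand for 4 core subunits and 6 cap subunits, since 2 rows carry non-ATPase regulatory subunit 1. Together they summed to 513, 600.02 and 579 TPM in β-asarone libraries and 539, 586 and 544 TPM in control libraries. The mean was 564 ± 45.4 TPM in β-asarone libraries and 556 ± 25.7 TPM in control libraries (SD, n = 3 each), a ratio of 1.01. Of the 11, 5 were higher and 6 lower, and 0 passed the test. The groups did not overlap in 2 rows, both higher, against 4.53% of all tested rows on that side and 4.21% of those with a planthopper best hit. The median coefficient of variation of these rows over the 6 libraries was 8.29%, against 28.5% over all tested rows and 19.7% over those that averaged 5 TPM or more. These sets were not matched in level: the median was 52.4 TPM for the 11 rows, against 2.86 and 12.06 TPM.

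The 20S core is built from rings of alpha subunits, which gate it, and of beta subunits, some of which cut. Alpha type-4 (TRINITY_DN10458_c0_g1) had 61.1, 63.4 and 65.4 TPM in β-asarone libraries and 56.6, 53.6 and 57.7 TPM in control libraries. Alpha type-5 (TRINITY_DN4022_c0_g1) had 52.6, 58.5 and 54.5 TPM in β-asarone libraries and 51.1, 47.2 and 50.7 TPM in control libraries. In both, every β-asarone library lay above every control library. The log2 change was 0.18 (SE 0.12) for alpha type-4 and 0.15 for alpha type-5, both with a limma adjusted p of 0.98.

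Beta type-5, the subunit with chymotrypsin-like activity, showed no such gap. Row TRINITY_DN18006_c0_g1 had 70.2, 82.8 and 82.9 TPM in β-asarone libraries and 77.8, 83.3 and 72.2 TPM in control libraries. Beta type-7, which carries the trypsin-like site, is row TRINITY_DN3337_c0_g2, with 60.5, 83.9 and 80.6 TPM in β-asarone libraries and 67.0, 92.6 and 73.5 TPM in control libraries. In both rows the 2 groups overlapped, with replicate 1 of β-asarone lowest and control replicate 2 highest. The 95% interval of the log2 change ran from -0.31 to 0.34 for beta type-5.

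In the 19S cap, ATPases unfold the protein. Regulatory subunit 7 (TRINITY_DN7449_c0_g1), one of these ATPases, had 58.4, 52.6 and 51.6 TPM in β-asarone libraries and 50.4, 54.5 and 49.6 TPM in control libraries. Its groups overlapped, and the log2 change was 0.07 (SE 0.12). The class of ATPase rows, 4 in all, summed to 62.8, 58.0 and 56.6 TPM in β-asarone libraries and 55.6, 60.8 and 56.0 TPM in control libraries.

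The non-ATPase subunits of the cap form its base and lid and include its ubiquitin receptors. Non-ATPase subunit 8 (TRINITY_DN22827_c0_g1), a lid subunit, had 79.9, 81.7 and 76.4 TPM in β-asarone libraries and 79.3, 64.1 and 76.6 TPM in control libraries. The non-ATPase 1-like row (TRINITY_DN517_c0_g1), for the large scaffold of the base, had 39.2, 50.4 and 55.3 TPM in β-asarone libraries and 53.0, 60.5 and 54.5 TPM in control libraries. Its log2 change of -0.22 (SE 0.17) had an unadjusted p of 0.227 (limma, adjusted p = 0.98), and β-asarone replicate 3 lay inside the control range. The ubiquitin receptor ADRM1 (TRINITY_DN4458_c0_g1) had 25.8, 31.1 and 32.1 TPM in β-asarone libraries and 29.5, 32.2 and 27.7 TPM in control libraries, so the groups overlapped. The p97 ATPase, which pulls ubiquitin-tagged proteins out of membranes and complexes before the proteasome, is row TRINITY_DN4776_c0_g1 (TER94). It had 74.5, 84.4 and 87.0 TPM in β-asarone libraries and 82.8, 82.2 and 75.1 TPM in control libraries, and the groups overlapped.

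**Figure D2:**
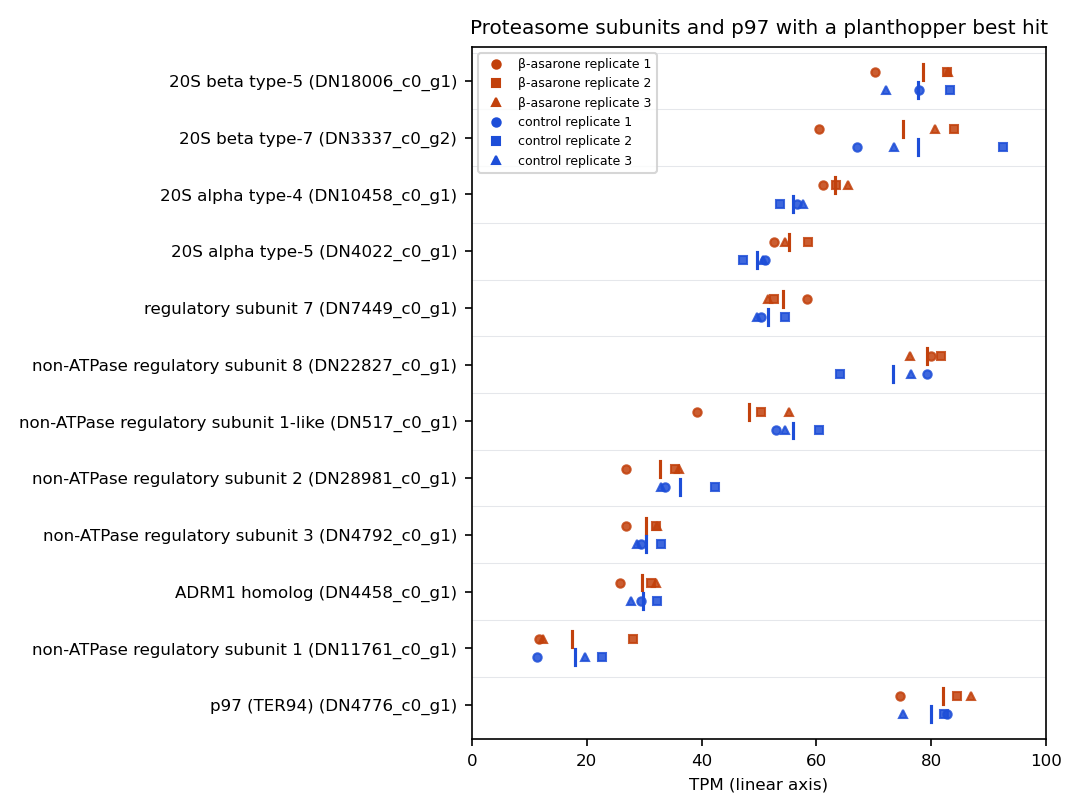
TPM (linear axis) of the 11 proteasome subunit rows with a planthopper best hit and of p97, with a point for each of the 3 β-asarone and 3 control libraries and a short vertical line at each group mean. Only alpha type-4 and alpha type-5 have all 3 β-asarone libraries above the 3 control libraries, and β-asarone replicate 1 is the lowest library in 6 of the 11 subunit rows.

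Genes that build or regulate the proteasome were lower in level than its subunits. Regulatory particle assembly chaperone 5 (TRINITY_DN442_c1_g1), which helps put the cap together, had 15.7, 14.8 and 16.01 TPM in β-asarone libraries and 13.8, 17.8 and 15.0 TPM in control libraries. Proteasomal ATPase-associated factor 1 (TRINITY_DN13822_c0_g1), in mammals a negative regulator of the 26S proteasome, had 7.25, 4.71 and 5.35 TPM in β-asarone libraries and 7.12, 3.52 and 6.72 TPM in control libraries. Both had overlapping groups. Of 11 rows of this class, 5 were tested, 3 of them higher and 2 lower.

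The system's entry point, the E1, was represented by 1 row, ubiquitin-like modifier-activating enzyme 1 (TRINITY_DN11365_c0_g4), with 2.76, 3.36 and 3.12 TPM in β-asarone libraries and 2.93, 3.85 and 3.82 TPM in control libraries. Its best hit lay outside the arthropods. The groups overlapped.

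The E2 enzymes held 23 rows, of which 20 were tested, 11 higher and 9 lower. E2-17 kDa (TRINITY_DN5418_c0_g1), the most abundant E2, had 74.4, 64.8 and 67.4 TPM in β-asarone libraries and 65.6, 51.4 and 61.2 TPM in control libraries. The row described only as ubiquitin conjugating enzyme E2 (TRINITY_DN2077_c0_g1) had 39.0, 35.3 and 34.3 TPM in β-asarone libraries and 36.2, 24.8 and 38.1 TPM in control libraries. In both rows control replicate 2 was lowest and the groups overlapped.

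A probable E2 7 (TRINITY_DN5983_c0_g1) had 13.2, 11.1 and 12.4 TPM in β-asarone libraries and 10.8, 10.2 and 9.80 TPM in control libraries. It was the 1 E2 row whose groups did not overlap, at a log2 change of 0.23 (SE 0.13) and an unadjusted limma p of 0.131 (adjusted p = 0.98). The row described as ubiquitin-conjugating enzyme E (TRINITY_DN3899_c0_g1) had 13.8, 12.2 and 11.1 TPM in β-asarone libraries and 11.8, 5.52 and 9.94 TPM in control libraries. Its log2 change of 0.46 (SE 0.27) was 0.17 without control replicate 2, the lowest library. E2 C (TRINITY_DN8904_c0_g1), which in animals works with the anaphase-promoting complex, had 4.68, 5.52 and 5.10 TPM in β-asarone libraries and 4.86, 7.37 and 6.19 TPM in control libraries, with overlap.

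E3 ligases were the most numerous enzymes and were low in level. The HECT and RBR types, which take ubiquitin onto themselves before passing it on, held 26 rows, 10 of them tested, with 5 higher and 5 lower. TRIP12 (TRINITY_DN816_c0_g1), a HECT ligase, had 18.4, 14.7 and 16.2 TPM in β-asarone libraries and 20.2, 13.3 and 17.6 TPM in control libraries. Ubiquitin-protein ligase E3C (TRINITY_DN1408_c0_g1), which in mammals binds the proteasome, had 5.45, 5.84 and 5.99 TPM in β-asarone libraries and 6.34, 6.21 and 5.45 TPM in control libraries. Both had overlapping groups. Parkin (TRINITY_DN6492_c0_g1), the RBR ligase of damaged mitochondria, had 4.05, 3.60 and 3.27 TPM in β-asarone libraries and 3.5, 2.74 and 2.73 TPM in control libraries, with control replicate 1 inside the β-asarone range. Parkin is named here after its values were seen.

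The RING, U-box and unspecified ligases, most of which bring an E2 to the target, held 31 rows, 18 of them tested, with 11 higher and 7 lower. The row znrf2 (TRINITY_DN18187_c0_g1) had 21.8, 17.7 and 16.9 TPM in β-asarone libraries and 19.5, 11.7 and 14.9 TPM in control libraries. MAEA (TRINITY_DN869_c0_g1), a subunit of the CTLH ligase, had 10.2, 9.54 and 9.51 TPM in β-asarone libraries and 10.7, 7.57 and 9.13 TPM in control libraries. In both, control replicate 2 was lowest and the groups overlapped.

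Cullin ligases are modular, with a cullin scaffold and F-box proteins as exchangeable target readers. The cullins were barely detected by description: cullin-1-like TRINITY_DN47497_c0_g1 had 0.57, 0.62 and 0.67 TPM in β-asarone libraries and 0.90, 0.71 and 1.03 TPM in control libraries, below the level tested. The best hit of that row also lay outside the arthropods. CAND1 (TRINITY_DN1798_c0_g1), which exchanges the readers, had 5.17, 4.71 and 5.01 TPM in β-asarone libraries and 5.22, 3.63 and 4.65 TPM in control libraries, with overlap.

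Of 17 F-box rows, 10 were tested, 6 higher and 4 lower. The F-box protein grrA (TRINITY_DN501_c2_g1) had 15.2, 15.6 and 14.3 TPM in β-asarone libraries and 15.8, 16.8 and 17.3 TPM in control libraries. All 3 β-asarone libraries lay below all 3 control libraries, which no other member with a mean of at least 5 TPM showed. The log2 change was -0.14 (SE 0.12, limma adjusted p = 0.98). FBXW5 (TRINITY_DN15993_c0_g1) had 8.69, 6.86 and 6.16 TPM in β-asarone libraries and 10.2, 5.72 and 6.82 TPM in control libraries, with overlap.

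NEDD8 (TRINITY_DN8875_c0_g1) was the most abundant member after ubiquitin, with 94.8, 97.1 and 86.7 TPM in β-asarone libraries and 87.9, 83.3 and 93.4 TPM in control libraries. The groups overlapped, with a log2 change of 0.07 (95% interval -0.22 to 0.37). The SUMO-conjugating enzyme UBC9-B (TRINITY_DN6176_c0_g1) had 33.5, 31.0 and 29.5 TPM in β-asarone libraries and 30.1, 20.9 and 28.1 TPM in control libraries, with overlap. The regulatory subunit of the NEDD8-activating enzyme (TRINITY_DN16679_c0_g1), named after its values were seen, had 5.97, 5.91 and 5.82 TPM in β-asarone libraries and 5.71, 4.39 and 4.77 TPM in control libraries. Its groups did not overlap, at a log2 change of 0.22 (limma adjusted p = 0.98).

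The COP9 signalosome takes NEDD8 off cullins. Its subunit 7 appeared in 2 rows. TRINITY_DN2753_c0_g1 had 10.8, 8.74 and 10.1 TPM in β-asarone libraries and 10.7, 9.29 and 8.75 TPM in control libraries. TRINITY_DN14730_c0_g1 had 1.74, 3.64 and 1.3 TPM in β-asarone libraries and 2.24, 1.53 and 3.09 TPM in control libraries. Both overlapped, and the second varied more between libraries of a group than between groups. Of 7 COP9 rows, 4 were tested, 1 higher and 3 lower. The groups did not overlap in 2 lower rows (50%), against 4.14% of all tested rows. These were subunit 3 (TRINITY_DN36432_c0_g1) and subunit 2-like (TRINITY_DN48675_c0_g1), named after their values were seen. The latter averaged 0.953 TPM in β-asarone and 1.24 TPM in control libraries. It reached the tested level only through that higher group.

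The deubiquitinases held 27 rows, 10 of them tested, with 4 higher and 6 lower, and summed to 80.8, 81.4 and 83.7 TPM in β-asarone libraries and 88.5, 77.8 and 80.9 TPM in control libraries. USP3 (TRINITY_DN915_c0_g1), known in mammals for removing ubiquitin from histones, had 7.86, 8.78 and 8.50 TPM in β-asarone libraries and 7.16, 5.78 and 6.93 TPM in control libraries. Every β-asarone library lay above every control library. Its log2 change of 0.30 (SE 0.14, 95% interval -0.05 to 0.65) had an unadjusted limma p of 0.0785, the smallest of the members with a mean of at least 5 TPM, and an adjusted p of 0.98.

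USP7 (TRINITY_DN4457_c0_g1), the most abundant deubiquitinase, had 22.7, 25.6 and 26.5 TPM in β-asarone libraries and 25.6, 26 and 25.4 TPM in control libraries. The otubain row (TRINITY_DN5979_c0_g1) had 16.7, 16.6 and 16.4 TPM in β-asarone libraries and 18.3, 14.5 and 15.1 TPM in control libraries. Both overlapped between the groups. Of members outside these classes, UBTD1 (TRINITY_DN4153_c0_g1) had 27.2, 22.4 and 20.1 TPM in β-asarone libraries and 22.4, 12.7 and 21.8 TPM in control libraries. Ubiquitin-like protein 7 (TRINITY_DN822_c0_g1) had 14.8, 15.99 and 16.6 TPM in β-asarone libraries and 17.4, 17.3 and 14.8 TPM in control libraries. Neither row separated the groups.

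Over the 141 tested members, 68 were higher and 73 lower in β-asarone libraries, with a median log2 change of -0.01, against 0.08 over all tested rows. After median-of-ratios scaling 48 were higher and 93 lower, and after quantile normalization 54 were higher and 87 lower. Groups did not overlap for 8 members that were higher (5.67%), against 4.53% of all tested rows, and for 17 that were lower (12.1%), against 4.14%. Both counts include rows that reached the tested level only through their higher group, such as UBR2 and the second UBC9-B row described below. Such rows were not set aside. Among the 56 members with a mean of at least 5 TPM, 36 were higher and 20 lower, with a median of 0.06, a balance that turned to 23 higher and 33 lower after median-of-ratios scaling and to 29 and 27 after quantile normalization. In those 56 the groups did not overlap in 6 that were higher (10.7%) and in 1 that was lower (1.79%). Over all tested rows that averaged 5 TPM or more, the shares were 4.56% higher and 2.72% lower. The lower members whose groups did not overlap were therefore mostly of low level.

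The direction also differed with the best-hit species. Of the 79 tested members with a planthopper best hit, 51 were higher and 28 lower in β-asarone libraries, with a median log2 change of 0.06, and median-of-ratios scaling moved the lower count to 45 of 79 and the median to -0.04, and quantile normalization to 41 of 79 and -0.0052. Of the 62 tested members with another best hit, 17 were higher and 45 lower, with a median of -0.15. The direction was not the same at all levels: under 5 TPM 10 of these were higher and 41 lower, while at 5 TPM or more 7 were higher and 4 lower, with a median of 0.07. Under 5 TPM, members with a planthopper best hit had 22 higher and 12 lower. Over all tested rows, 37.2% were lower. The groups did not overlap for 7 higher (8.86%) and 3 lower (3.797%) planthopper-hit members. Over all tested rows with a planthopper best hit the shares were 4.21% higher and 2.23% lower. Among members with another best hit, the groups did not overlap for 1 higher (1.61%) and 14 lower (22.6%). Over all tested rows with another best hit the shares were 1.56% higher and 17.3% lower. The median level, untested rows included, was 3.79 TPM for members with a planthopper best hit and 0.979 TPM for members with another best hit. Hits outside the arthropods gave 5 higher and 24 lower, hits in arthropods other than insects 2 and 11, and hits in other insects 10 and 10.

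The whole table showed the same division, so it is not particular to the members. Of 2120 tested rows with another best hit, 71.2% were lower, against 72.6% of such members. Their groups did not overlap on the lower side for 17.3% of all such rows and for 22.6% of such members. Of 12248 tested rows with a planthopper best hit, 29.7% were lower, against 35.4% of such members. The best hits are the authors' annotation, and the organism that the RNA came from was not tested.

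Leaving out either replicate 2 library, or β-asarone replicate 1, left more lower than higher members with another best hit over all levels. The remaining leave-outs are not given for these members. They were 40 of 62 without control replicate 2, 44 of 58 without β-asarone replicate 2 and 46 of 65 without β-asarone replicate 1. For members with a planthopper best hit the balance changed, with 40 of 80 lower without control replicate 2 and 20 of 77 lower without control replicate 1.

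**Figure D3:**
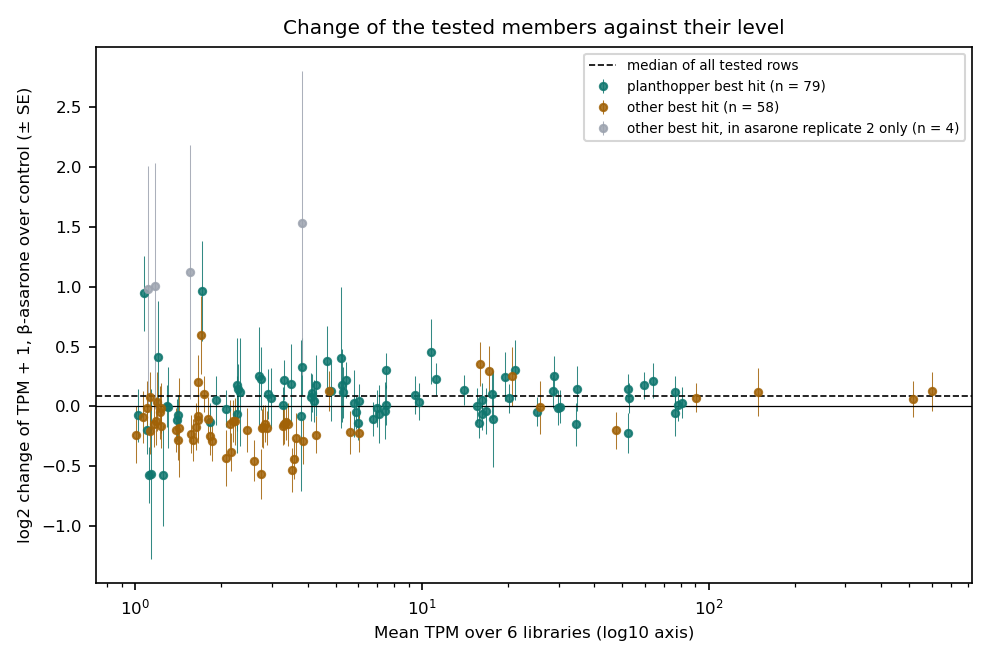
The log2 change of TPM + 1 (β-asarone over control, with its SE) of the 141 tested members against their mean TPM over the 6 libraries (log10 axis), coloured by the kind of best hit. Changes of members above 10 TPM lie between -0.22 and 0.46, members with another best hit lie mostly below 0 at 1 to 5 TPM, and the 4 tested members found in β-asarone replicate 2 only lie highest.

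The members with an unadjusted p under 0.05 were all of low level, and all had an adjusted limma p of 0.98. Apart from the p97 row, they fell outside the rule for named genes and were chosen after their values were seen. The 1 higher member was UBR2 (TRINITY_DN23237_c0_g1), a ligase that reads the first residue of a protein, with 1.69, 1.61 and 1.79 TPM in β-asarone libraries and 0.52, 0.81 and 0 TPM in control libraries. Its log2 change was 0.94 and the groups did not overlap. It averaged 1.70 TPM in β-asarone libraries and 0.44 TPM in control libraries, so it reached the tested level of 1 TPM only through the group where it was higher, and its p is not read as support.

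Of the 5 lower members, 4 had another best hit. Proteasome maturation protein-like (TRINITY_DN51928_c0_g1), which in yeast and mammals guides assembly of the core, had 2.97, 2.95 and 2.20 TPM in β-asarone libraries and 3.85, 5.20 and 4.04 TPM in control libraries (log2 change -0.53). The second alpha type-5 row (TRINITY_DN4854_c0_g1) had 1.62, 2.53 and 1.9 TPM in β-asarone libraries and 2.71, 3.43 and 4.25 TPM in control libraries (log2 change -0.56). The NEDD8-conjugating enzyme Ubc12 (TRINITY_DN6084_c0_g1) had 1.63, 2.07 and 2.42 TPM in β-asarone libraries and 3.00, 3.33 and 3.08 TPM in control libraries (log2 change -0.45). In all 3 rows every β-asarone library lay below every control library.

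The same held for the other 2. The second p97 row (TRINITY_DN49324_c0_g1) had 2.45, 3.22 and 2.99 TPM in β-asarone libraries and 3.76, 4.28 and 4.74 TPM in control libraries, at a log2 change of -0.44 (95% interval -0.84 to -0.04). A second UBC9-B row (TRINITY_DN15164_c0_g1), the 1 with a planthopper best hit, had 0.40, 0.77 and 0.98 TPM in β-asarone libraries and 1.52, 1.47 and 1.59 TPM in control libraries, at a log2 change of -0.57. It averaged 0.72 TPM in β-asarone libraries and 1.53 TPM in control libraries, so it too reached the tested level only through its higher group.

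Proteasome subunits with another best hit summed to 66.2, 138 and 86.0 TPM in β-asarone libraries and 76.2, 102 and 88.4 TPM in control libraries, a ratio of 1.09, and of 25 tested rows 5 were higher and 20 lower. Of the 5 higher rows, 4 were found in β-asarone replicate 2 only. Setting aside rows of at least 10 TPM and rows found in 1 library only, a choice made after their values were seen, left 24 rows. These summed to 45.0, 54.8 and 55.5 TPM in β-asarone libraries and 54.8, 68.8 and 65.2 TPM in control libraries, a ratio of 0.822, so this choice turned the direction of the summed level. The mean was 51.8 ± 5.89 TPM in β-asarone libraries and 63.0 ± 7.29 TPM in control libraries (SD, n = 3 each). Of the 20 tested, 19 were lower, and the groups did not overlap in 6 of them, figures that the choice of rows helped to set. Among all tested rows under 5 TPM with another best hit, 72.1% were lower, and the groups did not overlap on the lower side in 18.8%, against 4.14% of all tested rows.

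Single rows show the size of these differences. The beta-type row TRINITY_DN4254_c0_g1, the most abundant of the 24, had 4.79, 5.62 and 6.08 TPM in β-asarone libraries and 5.80, 7.06 and 6.87 TPM in control libraries. The ATPase subunit 6A-B (TRINITY_DN29595_c0_g1) had 2.43, 2.95 and 2.53 TPM in β-asarone libraries and 2.75, 3.21 and 3.10 TPM in control libraries. Both overlapped between the groups.

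Within the groups the libraries differed as much. Relative to each row's own mean, the median of the 24 rows was 80.0%, 92.7% and 94.5% in β-asarone replicates 1, 2 and 3 and 96.99%, 117% and 114% in control replicates 1, 2 and 3. For the 11 planthopper-hit rows the medians were 88.2%, 106% and 106% in β-asarone libraries and 97.4%, 108% and 96.3% in control libraries. β-asarone replicate 1 was lowest, or tied at 0 for lowest, in 23 of the 25 tested subunit rows with another best hit. The ties are rows found in β-asarone replicate 2 only. It was the lowest library in 6 of the 11 planthopper-hit rows. Of all 58 tested members with another best hit that were not found in 1 library only, it was lowest in 32. The ratio of the summed levels of the 24 rows was 0.876 without β-asarone replicate 1 and 0.862 without control replicate 2. Over the fuller set of leave-outs of 1 library it ran from 0.772, without control replicate 1, to that 0.876.

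**Figure D4:**
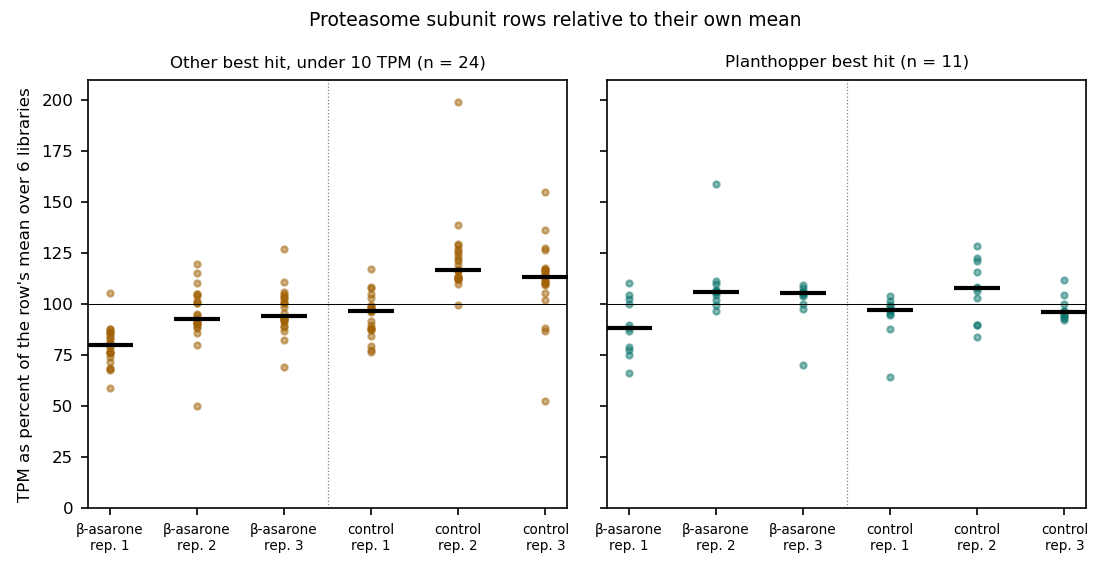
TPM of each proteasome subunit row as a percent of its mean over the 6 libraries, with black bars at the library medians. On the left are the 24 rows with another best hit that were under 10 TPM and above 0 in more than 1 library. That choice was made after their values were seen. On the right are the 11 rows with a planthopper best hit. On the left the medians run from 80.0% to 94.5% in β-asarone libraries and from 96.99% to 117% in control libraries, and on the right from 88.2% to 106% and from 96.3% to 108%.

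For 12 products, both a planthopper-hit row and a row with another best hit were present at enough level to compare (at least 5 TPM and at least 1 TPM), by a rule chosen after seeing the data. Rows found in 1 library only were left out by this rule. The level of the other rows was then expressed as a percent of the planthopper-hit rows of the same product. For alpha type-5 this was 3.63 ± 0.635% in β-asarone libraries and 6.99 ± 1.56% in control libraries (SD, n = 3 each). For p97 it was 3.51 ± 0.271% in β-asarone libraries and 5.35 ± 0.893% in control libraries. The groups did not overlap in these or in regulatory subunit 7 and beta type-5, so in 4 of 12 products, and overlapped in 8. The mean was lower in β-asarone libraries for 11 of the 12, the exception being non-ATPase subunit 1. That count depends on the rows left out. They include a non-ATPase subunit 8 row with 7.05 TPM and a subunit 2 row with 6.65 TPM, both in β-asarone replicate 2 only. Including them would raise the β-asarone mean of both products, and shares with them were not computed. No such share was computed for products outside the members, so these counts are not read as particular to them. Over the whole table, 71.2% of tested rows with another best hit were lower, against 29.7% of those with a planthopper best hit.

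**Figure D5:**
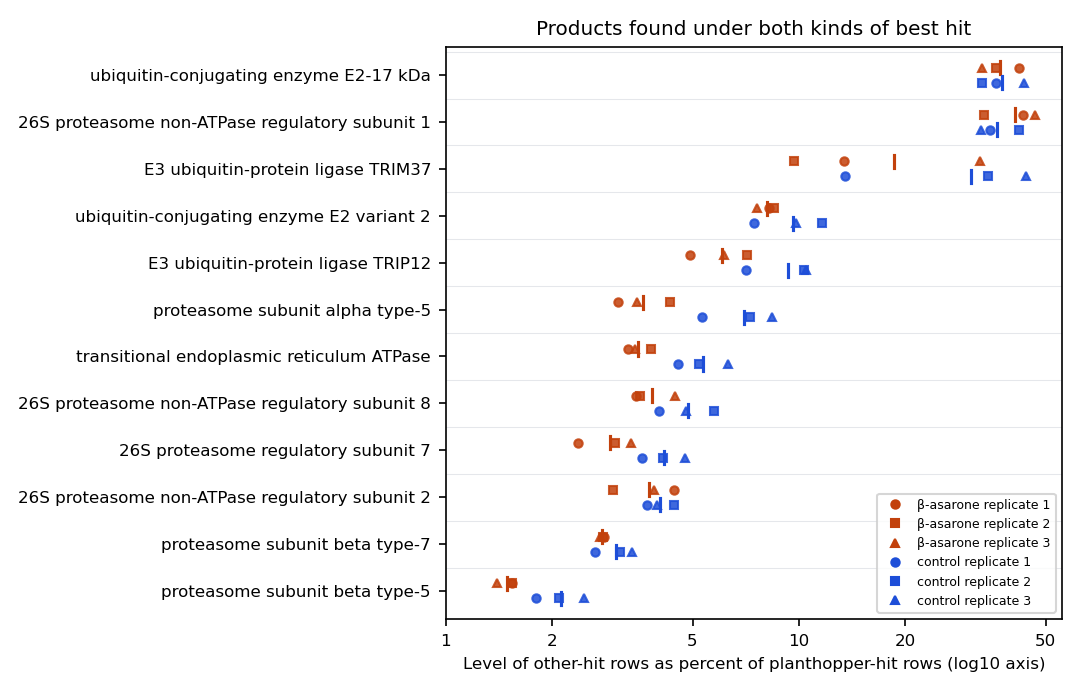
Level of the rows with another best hit as a percent of the planthopper-hit rows of the same product (log10 axis), for 12 products, with a point for each β-asarone and control library and a short vertical line at each group mean. The β-asarone points lie wholly left of the control points for alpha type-5, p97, regulatory subunit 7 and beta type-5, and overlap them for the other products.

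Of the members, 12 were above 0 in 1 library only, and 10 of these were in β-asarone replicate 2. All 10 had a best hit other than a planthopper, 9 were proteasome subunits, and together they summed to 63.4 TPM. Beta type-3 TRINITY_DN33976_c0_g1 was the highest, with 22.9 TPM in β-asarone replicate 2 and listed at 0 in the other 5 libraries. Alpha type-6 TRINITY_DN51773_c0_g1 had 9.32 TPM there and was listed at 0 elsewhere. Both are named after their values were seen. The core subunits among them are part of the summed 20S level of β-asarone replicate 2, which stood at 365 TPM, against 272 and 318 TPM in the other β-asarone libraries and 287 to 320 TPM in control libraries.

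Genes that work with the members but whose descriptions lack the chosen words were listed apart: adaptors such as elongin and SKP1, RING finger proteins, DDB1 and its partners, kelch-like readers, shuttle factors and proteins of retrotranslocation. Of 36 such rows, 23 were tested and 0 were called by limma, with 14 higher, 9 lower and a median log2 change of 0.06. Without adjustment 1 had a p under 0.05, against 3.47% of all tested rows. The groups did not overlap for 0 higher rows, against 4.53% of all tested rows, and for 4 lower rows (17.4%), against 4.14%. Of the 14 tested with a planthopper best hit, 1 was such a lower row (7.14%), against 2.23% of all tested rows with that hit. The rest of these lower rows had another best hit, for which the share over all tested rows was 17.3%.

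RING-box protein 1A (TRINITY_DN901_c0_g1), the catalytic RING subunit of cullin ligases and the most abundant of these rows, had 175, 152 and 155 TPM in β-asarone libraries and 149.7, 151 and 161 TPM in control libraries. Elongin-C (TRINITY_DN1819_c0_g1), an adaptor, had 29.3, 24.3 and 21.5 TPM in β-asarone libraries and 24.0, 13.1 and 23.5 TPM in control libraries. SKP1 (TRINITY_DN161_c0_g1), which joins F-box proteins to the cullin, had 11.6, 14.2 and 14.5 TPM in β-asarone libraries and 12.8, 16.2 and 15.8 TPM in control libraries. All 3 overlapped between the groups. The row with p under 0.05 was nhl-1-like (TRINITY_DN16850_c0_g1), a RING finger protein, with 2.29, 1.49 and 1.22 TPM in β-asarone libraries and 3.49, 2.75 and 2.96 TPM in control libraries (limma log2 change -0.62, unadjusted p = 0.0211, adjusted p = 0.98). These 4 were chosen after their values were seen.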

How the data were processed

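Total RNA of whole insects was enriched for poly(A) RNA (labels' protocols). StringTie 1.3.4d and HISAT2 2.0.4 are among the tools in the submitters' processing notes, together with DESeq2, edgeR and cutadapt 1.9, but no role is stated for any of them. A genome build was not given in the sources used here. Each library has TPM values that the authors deposited. The table is named for FPKM, but every library sums to the same total within rounding, as TPM does, so they were read as TPM. The test planned was kept.

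Samples were grouped by title. Rows that averaged 1 TPM or more were tested with limma 3.58.1 in R 4.3.3 (lmFit, then eBayes with its trend and robust options) on log2(TPM + 1), two-sided, Benjamini-Hochberg threshold 0.05. Fold changes on this scale understate the change of low genes. With 3 against 3 libraries an exact permutation test cannot go below 0.1, so none is given for single values. The procedure was tested on simulated data. Pairs of libraries shared identical values in 0.317% to 2.11% of rows, and none was merged.

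Members, classes and lists were chosen with earlier results of these data known. The genes named are, in each class, the 2 of highest mean and the tested member of smallest p with a mean of at least 5 TPM, and over all members the 5 higher and 5 lower of smallest p at that level. Genes outside this rule are marked in the text, except alpha type-5 and ADRM1, which were also named after their values were seen. Classes come from text patterns on the description, and the separation of best hits into planthoppers, other insects, other arthropods and outside arthropods was made after seeing the descriptions. No sequence was used here. As alternatives, scaling was changed to median-of-ratios or quantile, the pseudocount to 0.1 or 0.5, and the filter to none or to a mean of 5 TPM. Others were a fit with a replicate block, limma without its trend and robust options, planthopper best hits only, no rows found in 1 library only, rows of 1 description summed, and leaving out each library.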

Additional observations from a re-analysis of the deposited data

How the results depend on the processing

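No member passed the threshold under any alternative run, and the smallest adjusted p (limma) of any named gene under them was 0.675. The 1 row of all tested rows that passed was lost (count 0) under median-of-ratios and quantile scaling, without a filter, with a filter of 5 TPM, with a pseudocount of 0.1, with planthopper best hits only, and in the fit with the replicate block; without each library in turn the count ran from 0 to 0. Whether same-numbered libraries were paired is not known. Deviations from group means correlated at 0.157, 0.0814 and -0.035 for same-numbered libraries and at -0.139 to 0.0613 for the other pairs. These values do not settle it. The fit reported had no block, and the fit with the replicate block is an alternative.

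The median log2 change of members with another best hit was -0.15 and became 0.073 with a mean of at least 5 TPM, where 11 such members were tested. It lay at -0.22 under median-of-ratios scaling and under quantile normalization. Median-of-ratios scaling moved the median of all tested rows from 0.08 to 0.00489, and without control replicate 2 it was -0.03.

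The ratio of summed levels moved by more than the spread between libraries for some classes. Under median-of-ratios scaling it was 0.936 for the 19S ATPases, 0.847 for activators and assembly factors, 0.985 for SUMO and NEDD8, 0.920 for deubiquitinases, 0.878 for COP9 and 0.925 for p97. Under quantile normalization it was 0.865 for activators and assembly factors, 0.942 for deubiquitinases and 0.887 for COP9. With planthopper best hits only it was 1.01 for activators and assembly factors and 0.997 for COP9.

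Of the 629 values of named genes under the alternatives, 585 kept their direction and 44, in 16 genes, changed sign; in the fit as reported their log2 changes lay between -0.07 and 0.15. Under median-of-ratios scaling the log2 change was -0.060 for TRINITY_DN13822_c0_g1, -0.058 for TRINITY_DN2753_c0_g1, -0.093 for TRINITY_DN18006_c0_g1, -0.046 for TRINITY_DN3081_c5_g2, -0.097 for TRINITY_DN442_c1_g1, -0.075 for TRINITY_DN4776_c0_g1, -0.044 for TRINITY_DN5979_c0_g1, -0.036 for TRINITY_DN7449_c0_g1, -0.0015 for TRINITY_DN869_c0_g1 and -0.034 for TRINITY_DN8875_c0_g1. Under quantile normalization it was -0.077 for TRINITY_DN13822_c0_g1, -0.0035 for TRINITY_DN18006_c0_g1, -0.052 for TRINITY_DN2753_c0_g1, -0.053 for TRINITY_DN442_c1_g1, and -0.0052 for TRINITY_DN5979_c0_g1. Summing rows of 1 description gave 0.030 for TRINITY_DN14730_c0_g1. Over the fits that left out a library, it ran from -0.24 to 0.18 for TRINITY_DN13822_c0_g1, from -0.36 to 0.15 for TRINITY_DN14730_c0_g1, from -0.20 to 0.17 for TRINITY_DN15993_c0_g1, from -0.037 to 0.093 for TRINITY_DN18006_c0_g1, from -0.037 to 0.26 for TRINITY_DN2077_c0_g1, from -0.019 to 0.12 for TRINITY_DN2753_c0_g1, from -0.033 to 0.14 for TRINITY_DN3081_c5_g2, from -0.15 to 0.094 for TRINITY_DN3337_c0_g2, from -0.071 to 0.10 for TRINITY_DN442_c1_g1, from -0.087 to 0.019 for TRINITY_DN4457_c0_g1, from -0.012 to 0.099 for TRINITY_DN4776_c0_g1, from -0.0047 to 0.16 for TRINITY_DN5979_c0_g1, from -0.20 to 0.088 for TRINITY_DN816_c0_g1 and from -0.020 to 0.21 for TRINITY_DN869_c0_g1. The causes were not tested. TPM gives no depth, so how far counting error limits the low members is unknown.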
